A study of Homo sapiens with 18 samples.

Results

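The genes described here carry out fatty acid metabolism: making fatty acids, desaturating and lengthening them, activating them, storing them in triglyceride, releasing them and oxidising them. They are 39 named genes of the 58735 in the deposited read count table. They were chosen by gene symbol, with earlier results of these data known, and all 39 symbols were found in the table. By role there were 7 synthesis, 5 desaturation, 6 elongation, 4 activation, 7 storage, 2 lipolysis and 8 oxidation genes. Of the 39, 37 had enough reads for a test, and the lipid droplet protein gene PLIN2 and the lipase gene LIPE did not. The RNA came from LNCaP, an established prostate cancer line of human origin whose growth depends on androgen. All cells expressed a short hairpin RNA that lowers HOXB13, a prostate transcription factor of the homeobox family, and the design has no group without the hairpin. An inducible construct then supplied nothing further (EV, the empty vector), HOXB13 of normal sequence (WT) or a HOXB13 whose threonines 8 and 41 and serine 31 were replaced by alanine (3A), which removes 3 phosphorylation sites. The series is about phosphorylation of HOXB13 by the kinase mTOR. After 48 h in RPMI medium with 2% charcoal-stripped serum, which holds little steroid, cells received ethanol at 0.1% (vehicle) or 10 nM R1881, a synthetic androgen, for 24 h. Each of the 6 groups, the 3 rescue states in each treatment, had 3 libraries. The labels do not say that the 3 libraries were separate cultures, so the p-values rest on a spread that may be technical.

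Cells build fatty acids in the cytosol. ACLY turns citrate exported from mitochondria by SLC25A1 into acetyl-CoA, ACSS2 makes acetyl-CoA from acetate, the acetyl-CoA carboxylases ACACA and ACACB make malonyl-CoA, and fatty acid synthase (FASN) assembles palmitate with NADPH that malic enzyme (ME1) helps to supply. Desaturases insert double bonds and ELOVL elongases add carbons, while acyl-CoA synthetases attach coenzyme A so that a fatty acid can enter membranes, droplets or oxidation. Oxidation runs in mitochondria, behind the carnitine gate of CPT1A and CPT2, and in peroxisomes. Prostate tumour cells are known for high fatty acid synthesis that androgen raises, and FASN and ACSL3 are long-known androgen-responsive genes in LNCaP.

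Library totals ran from 22812641 to 30611980 counts. HOXB13 RNA itself, which in the count table adds endogenous and rescue transcripts, stood at 538, 497 and 564 CPM in the EV, 529, 589 and 490 in the WT and 668, 870 and 739 in the 3A vehicle group. Under R1881 it was at 421, 405 and 424 CPM in EV, 358, 317 and 366 in WT and 578, 506 and 436 in 3A. CPM is the count scaled to library size and is used for levels throughout, while FPKM is also scaled to gene length. The libraries labelled WT thus held no more HOXB13 RNA than those labelled EV, and every difference between rescue states below is one between libraries with these labels. All 8 luminal prostate markers were present, at a summed 2814 to 12618 CPM per library. All 6 adipocyte markers and all 4 leukocyte markers were under 1 CPM in every library. Of 13 markers of fibroblasts, endothelium, basal prostate and hepatocytes 8 were too, among them COL1A2, PDGFRA, PECAM1, CDH5, KRT5 and TP63. The others were COL1A1, at 18.1 to 25 CPM in vehicle and 12.5 to 19.8 with R1881, VWF, at 3.41 to 12.4 and 3.25 to 6.6, COL3A1, at 0.251 to 1.83 and 0 to 0.133, TTR, at 0.628 to 2.89 and 1.28 to 5.27, and KRT14, at 0 to 0.511 and 0.225 to 3.22. Their part in the results was not tested.

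Promoter sequences were available for 36 of the 39 genes in a RefSeq table of build GRCh38.p14. FASN was among the genes without one. Shown 5′ to 3′ are the 250 bases before the annotated start of 4 genes whose RNA rose with R1881 in all 3 rescue states (ACSL3, ELOVL7, ELOVL5 and ELOVL2) and of HADHB, an oxidation gene that fell. Capitals mark a CCAAT box (CCAAT), an E-box (CACGTG) or a GC box (GGGCGG), each searched on both strands, so ATTGG and CCGCCC are the first and the third read from the other strand. No 2 matches overlapped in these windows, which lie at chr2:222860786-222861035 on the plus strand for ACSL3, chr5:60844270-60844519 on the minus strand for ELOVL7, chr6:53348951-53349200 on the minus strand for ELOVL5, chr6:11044306-11044555 on the minus strand for ELOVL2 and chr2:26244689-26244938 on the plus strand for HADHB.
ACSL3: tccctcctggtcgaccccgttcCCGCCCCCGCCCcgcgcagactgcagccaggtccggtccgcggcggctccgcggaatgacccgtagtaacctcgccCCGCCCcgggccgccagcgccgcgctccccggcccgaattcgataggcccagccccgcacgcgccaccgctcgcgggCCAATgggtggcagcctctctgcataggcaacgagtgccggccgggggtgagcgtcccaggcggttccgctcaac
ELOVL7: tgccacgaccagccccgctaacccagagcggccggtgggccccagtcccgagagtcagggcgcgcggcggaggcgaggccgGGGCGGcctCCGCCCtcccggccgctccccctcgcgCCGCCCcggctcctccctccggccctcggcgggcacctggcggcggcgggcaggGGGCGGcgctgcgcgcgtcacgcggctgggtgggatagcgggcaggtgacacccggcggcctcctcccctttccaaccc
ELOVL5: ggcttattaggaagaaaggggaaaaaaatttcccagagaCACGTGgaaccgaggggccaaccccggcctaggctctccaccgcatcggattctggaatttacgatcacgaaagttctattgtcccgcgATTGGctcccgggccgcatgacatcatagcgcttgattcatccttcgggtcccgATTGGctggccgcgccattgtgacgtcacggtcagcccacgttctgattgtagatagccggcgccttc
ELOVL2: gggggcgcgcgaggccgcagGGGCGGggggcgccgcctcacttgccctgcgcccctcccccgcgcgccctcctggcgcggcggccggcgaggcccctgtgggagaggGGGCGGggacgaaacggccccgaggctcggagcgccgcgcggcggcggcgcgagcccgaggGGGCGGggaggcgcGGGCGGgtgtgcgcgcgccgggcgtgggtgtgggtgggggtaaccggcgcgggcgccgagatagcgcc
HADHB: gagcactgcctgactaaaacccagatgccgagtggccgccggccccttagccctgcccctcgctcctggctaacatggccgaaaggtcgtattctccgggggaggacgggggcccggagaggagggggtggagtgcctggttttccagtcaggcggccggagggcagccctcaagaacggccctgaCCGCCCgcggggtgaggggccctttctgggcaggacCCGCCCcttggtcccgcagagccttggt
The ACSL3 window holds 1 CCAAT box and 3 GC boxes, the ELOVL7 and ELOVL2 windows 4 GC boxes each, and the HADHB window 2 GC boxes. ELOVL5 has no GC box, 2 CCAAT boxes and 1 E-box. Over all 36 members, 28 (77.8%) held a GC box, against 42.6% of 35116 promoters of the same length, 13 (36.1%) a CCAAT box, against 32%, and 3 (8.33%) an E-box, against 6.34%. The 35116 are all RefSeq entries of that length, not matched to the members by gene type or expression. The sterol regulatory element TCACNCCAC stood in 1 member, PNPLA2, and in 0.883% of all promoters. The androgen response half-site AGAACA, present in 12.4% of all promoters, stood in none of the 36 windows. These counts describe letters in short windows and not binding sites.

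The first question was how androgen moves these genes in each rescue state. Among the 37 tested genes, R1881 raised most of the synthesis and elongation genes and a smaller part of the oxidation genes. In EV, 18 of the 37 tested genes rose and 6 fell, where 13.2% and 12% of all 17162 genes tested did. In WT, 15 rose and 2 fell, against 11% and 9.14% of all genes. In 3A, 16 rose and 5 fell, against 12.4% and 12.1%. The quasi-likelihood test of edgeR was used, p-values were adjusted over all genes (Benjamini-Hochberg), and a gene was called at an adjusted p under 0.05. All adjusted p-values below are from it unless another tool is named. The median log2 fold change over the 37 genes was 0.36 in EV, 0.14 in WT and 0.22 in 3A, beside -0.02, -0.03 and -0.01 over all genes. By role, 5, 4 and 5 of 7 synthesis genes rose in EV, WT and 3A, as did 2, 3 and 2 of 5 desaturation genes and 4, 5 and 4 of 6 elongation genes. Of 8 oxidation genes 3, 1 and 2 rose and 1, 1 and 2 fell. In EV and 3A the part of the oxidation genes that rose was above the share over all genes (13.2% and 12.4%). In WT it was close to that share (11%). Of the 37, 13 rose in all 3 rescue states: FASN, ACACA, ACLY, ACSS2, FADS1, FADS2, ELOVL1, ELOVL2, ELOVL5, ELOVL7, ACSL3, LPIN1 and ECI2. AGPAT2 and HADHB were the 2 that fell in all 3. Over all genes tested 1170 and 947 did so. In EV 20 of the 37 genes had every R1881 library above every vehicle library and 7 every one below, where 42.2% of all genes had no overlap. In WT these were 16 and 3 (32.6% of all genes), and in 3A 19 and 8 (36%).

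**Figure D1:**
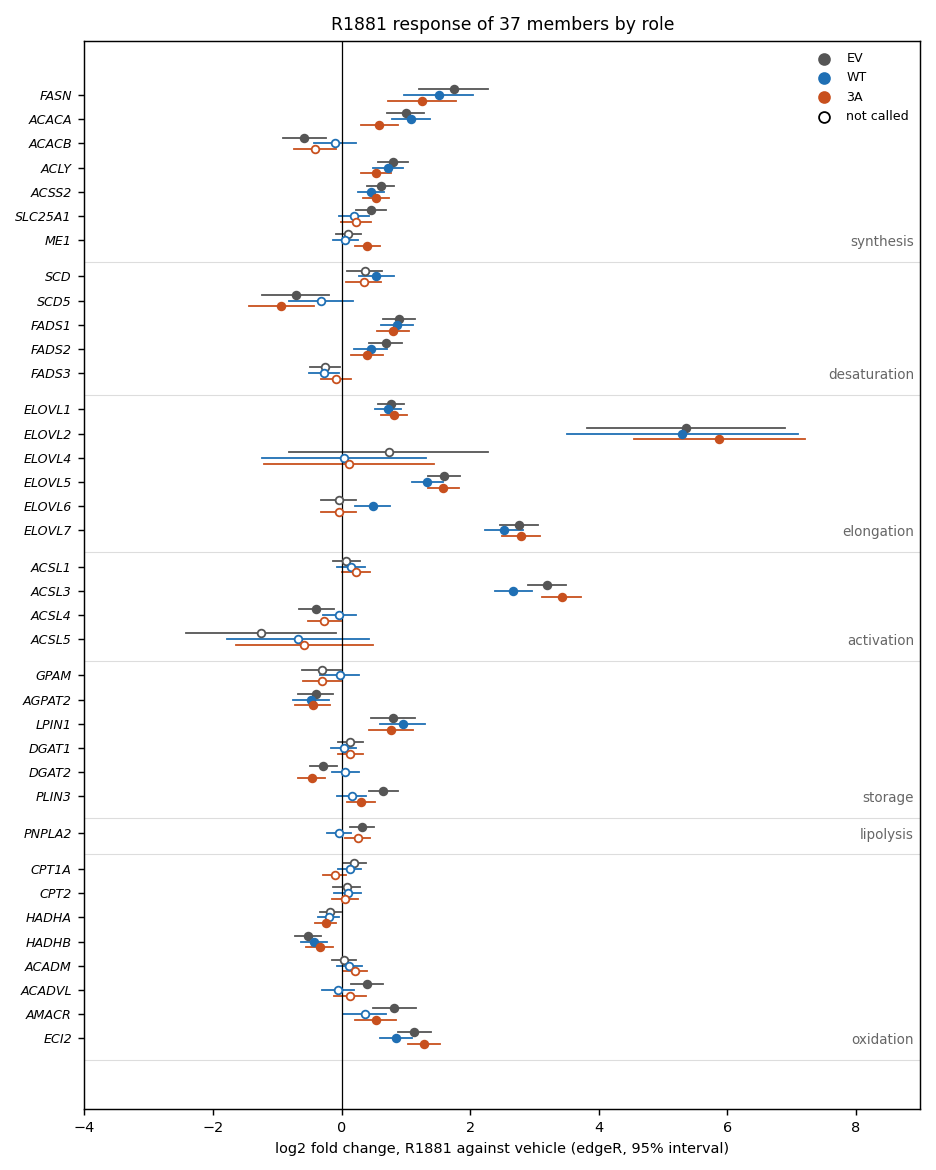
Log2 fold change of R1881 against vehicle (horizontal axis) for the 37 tested genes, grouped by role, in EV (grey), WT (blue) and 3A (orange). Points are edgeR estimates, lines are 95% intervals, and filled points passed an adjusted p under 0.05. ELOVL2 lies farthest right with wide intervals, ACSL3 and ELOVL7 lie between 2.52 and 3.42, and the oxidation genes other than ECI2 and AMACR stay between -0.52 and 0.39.

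Among the synthesis genes FASN moved most. Its vehicle libraries held 1055, 1662 and 1217 CPM in the EV, 872, 1053 and 837 in the WT and 1111, 1664 and 2220.0 in the 3A libraries. With R1881 they held 3681, 5431 and 4032 CPM in the EV, 2104, 3031 and 2718 in the WT and 2470.1, 5776 and 3624 in the 3A libraries. All R1881 libraries were above all vehicle libraries of their state, although libraries of 1 group differed widely, most of all in 3A with R1881. The log2 fold changes of FASN (ENSG00000169710, chr17:82078333-82098332, minus strand) were 1.74 (EV), 1.51 (WT) and 1.25 (3A) (SE 0.26, 0.26 and 0.26, adjusted p = 2.67e-05, 0.000171 and 0.000849), or 3.34, 2.84 and 2.38-fold. ACLY, which makes the acetyl-CoA that FASN's pathway uses, had 417, 494 and 405 CPM in the EV, 438, 407 and 339 in the WT and 505, 533 and 591 in the 3A vehicle libraries. Under R1881 it had 719.6, 859 and 709 CPM in the EV, 652, 668 and 623 in the WT and 725, 894 and 737 in the 3A libraries. These groups did not overlap either, and ACLY rose by 0.80, 0.72 and 0.53 on the log2 scale (adjusted p = 1.37e-05, 6.69e-05 and 0.00112).

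ACACA rose in all 3 states, and its paralogue ACACB was lower in EV. ACACA, the cytosolic form that feeds synthesis, was at 243, 311 and 259 CPM in the EV, 254, 277 and 199 in the WT and 303, 336 and 402 in the 3A libraries in vehicle. With R1881 ACACA was at 533, 601 and 486 CPM in the EV, 501, 539 and 499 in the WT and 436, 619 and 507 in the 3A libraries. Each R1881 library was above each vehicle library of its state, and ACACA rose by 0.99, 1.08 and 0.59 on the log2 scale (adjusted p = 1.17e-05, 5.45e-06 and 0.00297). ACACB, the form at the mitochondrial outer membrane whose malonyl-CoA restrains CPT1, was low, at 0.683 to 1.41 FPKM beside 14.9 to 47.3 FPKM for ACACA (FPKM is per gene length and so compares genes). Its log2 fold changes were -0.58 (EV), -0.11 (WT) and -0.41 (3A), called as lower in EV (adjusted p = 0.00947), which was not kept without EV vehicle replicate 2 (-0.50) or EV R1881 replicate 1 (-0.52). The ACACB change in 3A had adjusted p = 0.0621, with each R1881 library below each vehicle library. It was called with protein-coding genes only (-0.44, edgeR adjusted p = 0.0421) and with the replicate number as a block (-0.435, edgeR adjusted p = 0.0134). So it was without 3A R1881 replicate 2 (-0.60, edgeR adjusted p = 0.0104), and the other fits did not call it. ACSS2 rose in all 3 states, by 0.61, 0.45 and 0.53. The citrate carrier gene SLC25A1 had 162, 145 and 193 CPM in the EV, 140.0, 145 and 179 in the WT and 148, 184 and 166 in the 3A vehicle libraries. Given R1881, SLC25A1 had 221, 225 and 236 CPM in the EV, 175, 166 and 191 in the WT and 209, 183 and 186 in the 3A libraries. It rose in EV by 0.45 (adjusted p = 0.00472), and its values in WT and 3A were 0.20 and 0.22 with overlapping libraries and no call. ME1 was called in 3A, at 0.40, and had 0.10 in EV and 0.05 in WT.

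Among the desaturases FADS1 and FADS2 rose in every state, SCD rose in WT, and SCD5 fell in EV and 3A. SCD, the stearoyl-CoA desaturase that makes oleate, had the highest mean level of the 39 genes, 291 FPKM. In vehicle SCD stood at 1086, 1425 and 1372 CPM in the EV, 1423, 1023 and 1053 in the WT and 1617, 1453 and 1741 in the 3A libraries. In R1881 it stood at 1427, 1819 and 1724 CPM in the EV, 1783, 1758 and 1535 in the WT and 1864, 2207 and 2032 in the 3A libraries. The R1881 libraries were above the vehicle libraries in each state by a small margin. SCD rose in WT by 0.54 (adjusted p = 0.00486). The changes of 0.36 in EV and 0.34 in 3A had adjusted p = 0.0505 and 0.0608, and the EV value was called with the replicate number as a block (0.36, edgeR adjusted p = 0.0368). Both were called with no filter, with the compared groups alone and by DESeq2. Its paralogue SCD5 stood near 1.88 FPKM and fell in EV by 0.72 on the log2 scale and in 3A by 0.94, with -0.32 in WT. The EV call of SCD5 was lost without EV vehicle replicates 1 or 2 (-0.66 or -0.52) or EV R1881 replicates 1, 2 or 3 (-0.72, -0.82 or -0.58).

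FADS1 and FADS2, the delta-5 and delta-6 desaturases of polyunsaturated fatty acids, are annotated on opposite strands of chromosome 11, FADS1 within the span of FADS2. Of the exon bases of FADS1 5.6% overlap FADS2 or MIR1908, and of those of FADS2 4.9% overlap FADS1 or FEN1. FADS1 in vehicle stood at 78.4, 102 and 90.2 CPM in the EV, 116, 98.9 and 87.1 in the WT and 129, 122 and 134 in the 3A libraries. With R1881 FADS1 stood at 138, 182 and 180.2 CPM in the EV, 181, 188 and 177 in the WT and 211, 245 and 214 in the 3A libraries. FADS2 was at 558, 699 and 729.8 CPM in the EV, 687, 595 and 669 in the WT and 918, 988 and 1106 in the 3A libraries in vehicle. In R1881 FADS2 reached 870.4, 1205 and 1124 CPM in the EV, 829, 924 and 920.0 in the WT and 1234, 1482 and 1244 in the 3A libraries. For both genes the groups did not overlap in any state. FADS1 rose by 0.88, 0.86 and 0.80 (adjusted p = 7.54e-06, 1.42e-05 and 2.43e-05) and FADS2 by 0.69, 0.45 and 0.40 (adjusted p = 0.000213, 0.0103 and 0.0206). The FADS2 call in WT was lost without WT vehicle replicate 2 (0.40), and that in 3A without 3A vehicle replicates 1 or 2 (0.33 or 0.38) or 3A R1881 replicate 2 (0.30). FADS3, the third gene of the cluster, was called in no state, at -0.26 (EV), -0.27 (WT) and -0.09 (3A). With the replicate number as a block its EV value was -0.26 (edgeR adjusted p = 0.0344).

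Of the 6 elongase genes ELOVL1, ELOVL2, ELOVL5 and ELOVL7 rose in all 3 states. ELOVL5, which lengthens polyunsaturated fatty acids and was the most abundant elongase at a mean of 129 FPKM, had 292, 276 and 241 CPM in the EV, 279, 255 and 219 in the WT and 273, 249.9 and 235 in the 3A vehicle libraries. With androgen ELOVL5 had 850.3, 869 and 723 CPM in the EV, 713, 649 and 536 in the WT and 831, 732 and 706 in the 3A libraries. The lowest R1881 library was thus above the highest vehicle library by a wide margin. ELOVL5 (ENSG00000012660, chr6:53267398-53349179, minus strand) rose by 1.59 (EV), 1.33 (WT) and 1.58 (3A) (SE 0.12, 0.12 and 0.12, adjusted p = 1.18e-09, 2.27e-08 and 1.23e-09). ELOVL7, an elongase of saturated very-long-chain fatty acids, was at 26, 24.7 and 20.9 CPM in the EV, 34.4, 29.9 and 25.3 in the WT and 31.9, 25.2 and 24.9 in the 3A libraries before androgen. Its R1881 libraries stood at 162, 172 and 151 CPM in the EV, 201, 173 and 139 in the WT and 208, 178 and 180.2 in the 3A libraries. This was a rise of 2.76 (EV), 2.52 (WT) and 2.78 (3A) (SE 0.14, 0.14 and 0.14, adjusted p = 3.92e-12, 2.14e-11 and 3.19e-12), or 6.77, 5.73 and 6.89-fold.

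ELOVL1, which lengthens saturated and monounsaturated chains, had 111, 104 and 122 CPM in the EV, 118, 107 and 117 in the WT and 125, 116 and 104 in the 3A vehicle libraries. Under R1881 ELOVL1 had 193, 181 and 202 CPM in the EV, 195, 173 and 194 in the WT and 215, 178 and 211 in the 3A libraries. It rose by 0.77, 0.72 and 0.81 on the log2 scale (adjusted p = 3.03e-06, 9.73e-06 and 1.42e-06). ELOVL2, an elongase of long polyunsaturated chains, was close to absent without androgen. Its raw counts were 0, 2 and 0 in the EV, 1, 0 and 0 in the WT and 1, 1 and 2 in the 3A libraries given vehicle. In R1881 they were 18, 37 and 24 in EV, 30, 12 and 11 in WT and 64, 109 and 74 in 3A. Every R1881 library was above every vehicle library, and the gene was called in all 3 states (adjusted p = 9.55e-06, 9.11e-05 and 3.08e-07). Summed over libraries, the ratio of R1881 to vehicle was 48.9 in EV (exact 95% counting interval 13.1 to 410), 53.1 in WT (9.13 to 2137) and 65.4 in 3A (25.2 to 242). These intervals cover counting error only, and the size of the fitted fold depends on the prior count. ELOVL6, which lengthens palmitate to stearate, had 53.5, 57.1 and 52.7 CPM in the EV, 54.5, 43.9 and 47 in the WT and 80.3, 72.1 and 77.7 in the 3A vehicle libraries. Given R1881, ELOVL6 had 44.7, 58.4 and 55 CPM in the EV, 60.1, 77.5 and 65.1 in the WT and 58.4, 80.4 and 83.9 in the 3A libraries. It rose in WT by 0.48 (adjusted p = 0.0116), a call lost without WT vehicle replicate 2 (0.42) or WT R1881 replicate 2 (0.38), and stood at -0.05 in EV and -0.05 in 3A. ELOVL4 was near 0.106 FPKM and was called in no state.

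**Figure D2:**
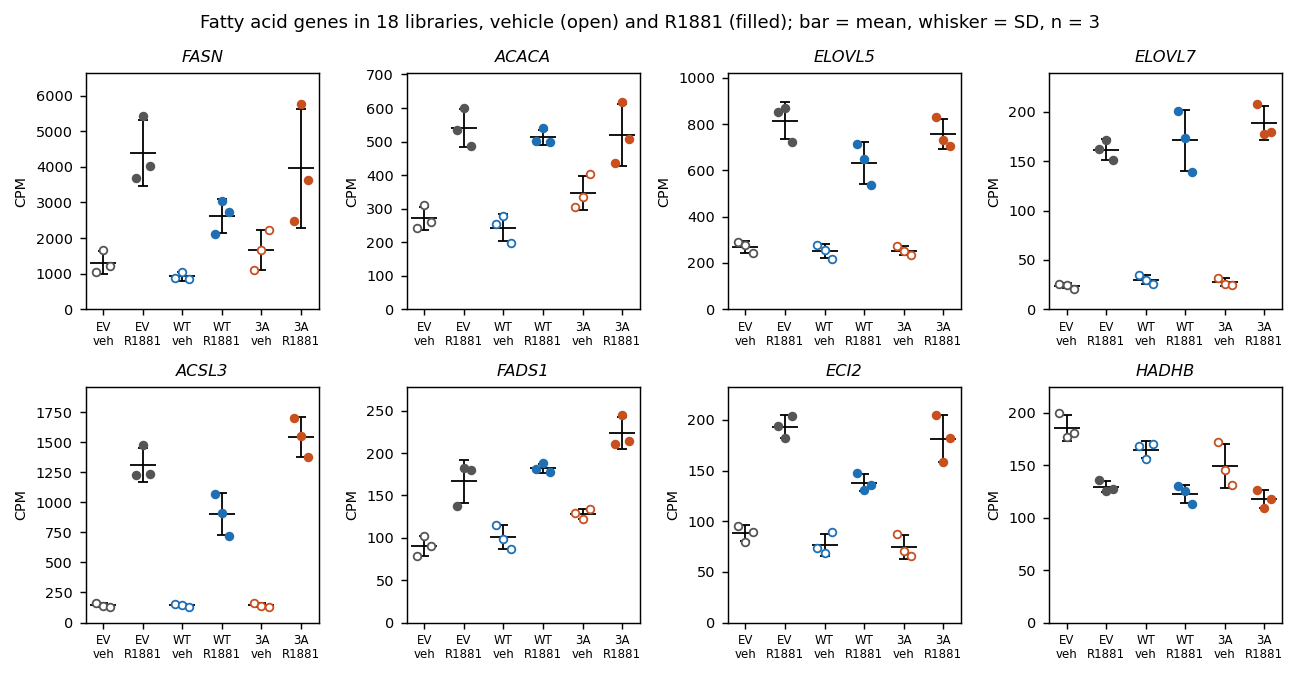
CPM of 8 genes (vertical axes, linear, from 0) in each of the 18 libraries, by rescue state and treatment. Open points are vehicle and filled points R1881, bars are means and whiskers SD, n = 3. ACSL3, ELOVL7 and ELOVL5 show separated groups in every state, FASN shows a wide spread within groups, and HADHB is lower with R1881.

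Of the 4 acyl-CoA synthetase genes ACSL3 alone rose. ACSL3, which works on lipid droplets and the endoplasmic reticulum, held 159, 141 and 129 CPM in the EV, 154, 145 and 127 in the WT and 162, 140.4 and 129 in the 3A libraries in vehicle. With R1881 ACSL3 held 1225, 1473 and 1237 CPM in the EV, 1072, 914 and 724 in the WT and 1702, 1549 and 1374 in the 3A libraries. Vehicle libraries lay in a narrow range in all states, and the R1881 libraries were several times higher. ACSL3 (ENSG00000123983, chr2:222860934-222944639, plus strand) rose by 3.19 (EV), 2.67 (WT) and 3.42 (3A) (SE 0.14, 0.14 and 0.14, adjusted p = 3.46e-13, 5.83e-12 and 1.88e-13), or 9.15, 6.36 and 10.7-fold. Per length, ACSL3 was below ACSL1 without androgen (19.6 against 55.3 FPKM in EV) and above it with androgen (179.9 against 58.4 FPKM).

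ACSL1, a synthetase of the endoplasmic reticulum and mitochondria, had 337, 380.3 and 337 CPM in the EV, 373, 325 and 320.3 in the WT and 376, 326 and 372 in the 3A vehicle libraries. Given R1881, it had 332, 409 and 368 CPM in the EV, 379, 411 and 333 in the WT and 391, 454 and 408 in the 3A libraries. Its log2 fold changes were 0.07 (EV), 0.14 (WT) and 0.22 (3A), and it was called in no state, with 95% intervals of -0.14 to 0.29, -0.07 to 0.36 and 0.01 to 0.44. ACSL4, which prefers arachidonate, fell in EV by 0.39 on the log2 scale (adjusted p = 0.0291) and stood at -0.04 in WT and -0.27 in 3A. That call was lost with no filter on low counts (-0.36, edgeR adjusted p = 0.132) and without EV vehicle replicates 1, 2 or 3 (-0.40, -0.33 or -0.41) or EV R1881 replicates 1 or 3 (-0.32 or -0.32). ACSL5 lay between 0.0293 and 0.272 FPKM in all libraries and was called in no state. In EV its log2 fold change was -1.26 (adjusted p = 0.11), with each R1881 library below each vehicle library. The fit of the compared groups alone called that change (-1.25, edgeR adjusted p = 0.0465).

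Storage genes moved in both directions. LPIN1, the phosphatidate phosphatase that makes diacylglycerol, rose by 0.80 (EV), 0.95 (WT) and 0.77 (3A) (adjusted p = 0.00107, 0.00023 and 0.00137). AGPAT2, the acyltransferase that makes phosphatidate a step earlier, had 55, 51.5 and 68.8 CPM in the EV, 47.3, 57.4 and 60.7 in the WT and 40.0, 49.2 and 44.4 in the 3A vehicle libraries. Given R1881, AGPAT2 had 45.3, 41.2 and 46.1 CPM in the EV, 37.6, 33.5 and 47.9 in the WT and 31.6, 31.8 and 34.2 in the 3A libraries. It fell in each state, with log2 fold changes of -0.40 (EV), -0.48 (WT) and -0.45 (3A) (adjusted p = 0.0287, 0.0128 and 0.0155), although the WT libraries overlapped. The AGPAT2 call was lost in EV without EV vehicle replicate 3 (-0.26) or EV R1881 replicates 1, 2 or 3 (-0.40, -0.34 or -0.42), in WT without WT vehicle replicates 2 or 3 (-0.44 or -0.40) or WT R1881 replicates 1 or 2 (-0.44 or -0.36) and in 3A without 3A vehicle replicate 2 (-0.37) or 3A R1881 replicate 1 (-0.42). In WT it was also lost in a fit of the compared groups alone (-0.47, edgeR adjusted p = 0.054).

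PLIN3, a protein that coats nascent lipid droplets, had 57.1, 56.4 and 52.5 CPM in the EV, 60.2, 60.8 and 50.9 in the WT and 64.5, 76.6 and 68.6 in the 3A vehicle libraries. Under R1881 PLIN3 stood at 85.9, 93.9 and 80.2 CPM in the EV, 69, 58.6 and 63.6 in the WT and 90.7, 93 and 74.6 in the 3A libraries. PLIN3 rose in EV by 0.65 (adjusted p = 7.92e-05) and in 3A by 0.30 (adjusted p = 0.0409), where its libraries overlapped, and stood at 0.15 in WT with no call. The 3A call was lost without 3A vehicle replicates 1 or 3 (0.25 or 0.29) or 3A R1881 replicates 1 or 2 (0.27 or 0.24), and in the fits with no filter (0.31, edgeR adjusted p = 0.064), with protein-coding genes only (0.28, edgeR adjusted p = 0.0528) and with the compared groups alone (0.31, edgeR adjusted p = 0.0621). PLIN2, the commonest droplet coat in many cells, had a mean of 0.0353 FPKM, the lowest of the 39. The diacylglycerol acyltransferases DGAT1 and DGAT2 make triglyceride. DGAT1 was called in no state, and DGAT2 had 40.7, 38.5 and 42 CPM in the EV, 41.3, 37.8 and 32.5 in the WT and 42, 40.4 and 36.7 in the 3A vehicle libraries. DGAT2 under R1881 had 36.5, 32.1 and 30.7 CPM in the EV, 37.2, 41.2 and 37.7 in the WT and 28.7, 28.3 and 29.3 in the 3A libraries. DGAT2 fell in EV by 0.29 and in 3A by 0.46 on the log2 scale (adjusted p = 0.0396 and 0.0014), with 0.06 in WT. Its EV call was lost with no filter (-0.25, edgeR adjusted p = 0.237) and without EV vehicle replicates 1, 2 or 3 (-0.27, -0.31 or -0.25) or EV R1881 replicates 2 or 3 (-0.25 or -0.22). GPAM, the mitochondrial acyltransferase of the first step, was called nowhere, at -0.31 (EV), -0.03 (WT) and -0.30 (3A), but with the replicate number as a block its EV value was -0.31 (edgeR adjusted p = 0.00865).

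PNPLA2, the main triglyceride lipase, held 109, 107 and 118 CPM in the EV, 91.9, 103 and 109 in the WT and 85.9, 101 and 86 in the 3A libraries in vehicle. In R1881 libraries PNPLA2 held 137, 134 and 145 CPM in the EV, 91.8, 95.6 and 108 in the WT and 106, 111 and 107 in the 3A libraries. It rose in EV by 0.32 (adjusted p = 0.0134), a call lost without EV R1881 replicate 3 (0.29), and stood at -0.04 in WT and 0.25 in 3A (adjusted p = 0.816 and 0.0539, the second called by DESeq2 and with its size factors). LIPE, hormone-sensitive lipase, had 2, 9 and 11 counts in the EV, 9, 5 and 10 in the WT and 2, 7 and 10 in the 3A vehicle group. Given R1881, LIPE had 2, 5 and 6 counts in EV, 4, 3 and 16 in WT and 4, 3 and 8 in 3A. LIPE did not pass the filter on low counts and was not tested.

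Of the oxidation genes ECI2 moved most. ECI2, an enoyl-CoA isomerase of peroxisomes and mitochondria for unsaturated chains, had 95.6, 79.8 and 89.3 CPM in the EV, 73.3, 68.2 and 89 in the WT and 87.8, 70.8 and 65.2 in the 3A vehicle libraries. Its R1881 libraries held 194, 182 and 204 CPM in the EV, 147, 131 and 136 in the WT and 204, 158 and 182 in the 3A libraries. The groups were apart in all states, and the rise was 1.13 (EV), 0.84 (WT) and 1.28 (3A) (SE 0.12, 0.12 and 0.12, adjusted p = 3.22e-07, 2.14e-05 and 4.96e-08). AL136309.4 and C6orf201, genes with few reads, together overlap 29.8% of its exon bases from the other strand. AMACR, the racemase that prepares branched-chain fatty acids for oxidation, had 8.34, 8.59 and 8.09 CPM in the EV, 9.07, 8.49 and 9.82 in the WT and 11.7, 19.1 and 16 in the 3A vehicle libraries. Given R1881, AMACR had 15.2, 15.9 and 13.1 CPM in the EV, 13.6, 10.5 and 11 in the WT and 20.1, 25.4 and 21.9 in the 3A libraries. AMACR rose in EV by 0.82 and in 3A by 0.53 (adjusted p = 0.000495 and 0.0134) and stood at 0.36 in WT (adjusted p = 0.127). Its 3A call was lost without 3A vehicle replicate 1 (0.36) or 3A R1881 replicate 2 (0.43). AMACR is uncertain, because 64.8% of its exon bases overlap the readthrough gene C1QTNF3-AMACR and another gene, between which the counting could split reads.

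The mitochondrial enzymes moved little. ACADVL, the dehydrogenase of very long chains and the most abundant oxidation gene at a mean of 110.4 FPKM, had 495, 519.5 and 606 CPM in the EV, 447, 511 and 565 in the WT and 401, 480.1 and 559 in the 3A vehicle libraries. Given R1881, ACADVL had 644, 776 and 708 CPM in the EV, 458, 480.5 and 524 in the WT and 505, 567 and 502 in the 3A libraries. It rose in EV by 0.39 (adjusted p = 0.0166) and stood at -0.06 in WT and 0.13 in 3A. The EV call was lost without EV vehicle replicates 1 or 2 (0.35 or 0.38) or EV R1881 replicate 2 (0.34). HADHA and HADHB encode the 2 subunits of the mitochondrial trifunctional protein. HADHA had 291, 279.6 and 255 CPM in the EV, 252, 256 and 247 in the WT and 262, 285 and 260.5 in the 3A vehicle libraries. HADHA under R1881 had 254, 250.1 and 225 CPM in the EV, 221, 223 and 212 in the WT and 234, 225 and 219 in the 3A libraries. Each R1881 library of HADHA was below each vehicle library of its state, but only the 3A change was called (-0.25, adjusted p = 0.0227), beside -0.18 in EV and -0.20 in WT. DESeq2 and the fit of protein-coding genes called WT too. Blocking on the replicate number gave a call in EV (-0.18, edgeR adjusted p = 0.0444). The 3A call was lost without 3A vehicle replicate 2 (-0.21) or 3A R1881 replicates 2 or 3 (-0.25 or -0.22), with no filter (-0.25, edgeR adjusted p = 0.148) and with the compared groups alone (-0.24, edgeR adjusted p = 0.0774). HADHB fell in all states, with log2 fold changes of -0.52 (EV), -0.43 (WT) and -0.34 (3A) (adjusted p = 0.000383, 0.00304 and 0.0124), the last lost without 3A vehicle replicate 1 (-0.23) or 3A R1881 replicate 2 (-0.29). CPT1A and CPT2, which carry acyl groups through the carnitine gate, and ACADM, the medium-chain dehydrogenase, were called in no state, with log2 fold changes from -0.11 to 0.21.

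Summed per role, the levels showed where androgen added most transcript. In EV the summed mean of the 7 synthesis genes went from 382.8 to 829 FPKM, a ratio of 2.17, of which FASN made up 73.1% of the difference. The ratio was 1.82 in WT and 1.76 in 3A. For the 6 elongation genes the ratios were 2.60, 2.32 and 2.58 in EV, WT and 3A, with ELOVL5 giving 69.7%, 61.4% and 65.3% of the difference. For the 4 activation genes they were 3.11, 2.44 and 3.54, with ACSL3 giving 98.5%, 95% and 95.5%. Desaturation sums rose by smaller ratios, 1.35, 1.43 and 1.29, and R1881 libraries of these 4 roles lay above the vehicle libraries in each state. For the 8 oxidation genes the ratios were 1.15, 0.994 and 1.07, and the libraries of the 2 treatments overlapped in WT and 3A. The sums weight the abundant genes and were not tested. Fewer cells with a transcript and less of it per cell cannot be told apart in these bulk libraries.

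**Figure D3:**
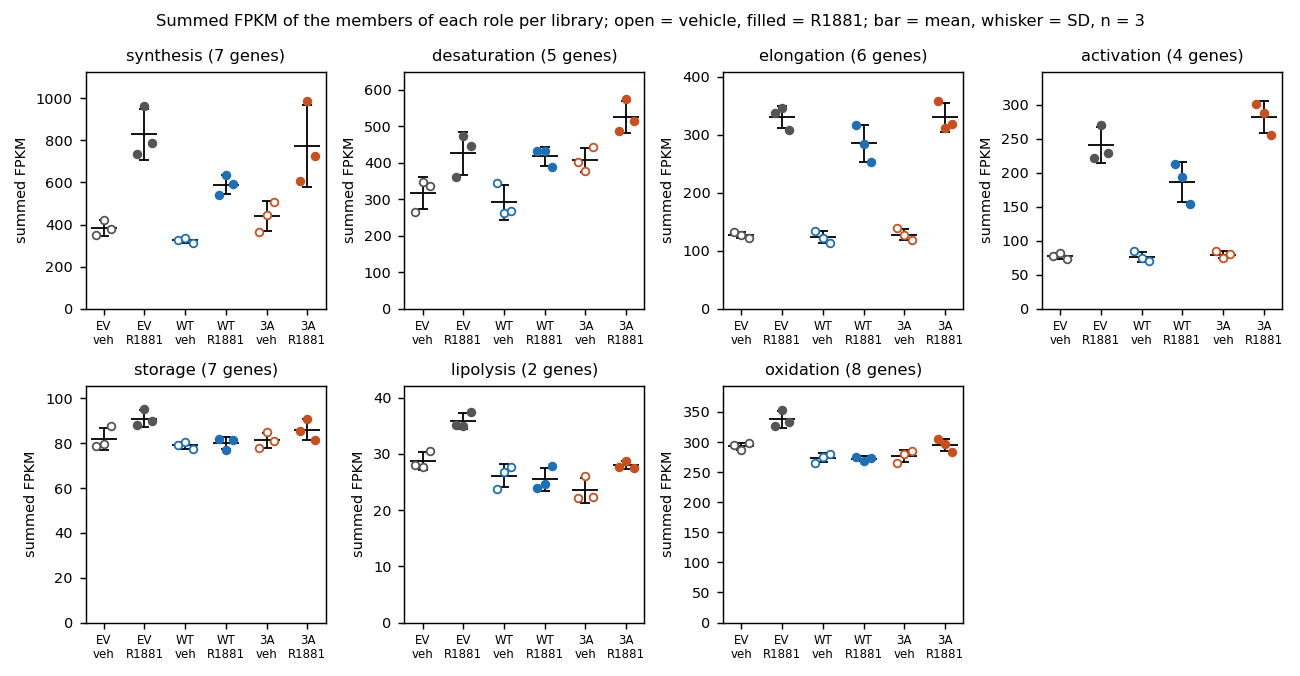
Summed FPKM of the genes of each role (vertical axes, from 0) in each library; open points are vehicle, filled points R1881, bars means and whiskers SD, n = 3. Synthesis, desaturation, elongation and activation sums separate by treatment in every rescue state. Oxidation sums separate in EV, overlap in WT and 3A, and stay between 265.3 and 353.2 FPKM in all 18 libraries.

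The second question was how the rescue states differ without androgen. In vehicle, WT and EV differed in 1 gene: ACSL4 was higher in WT (111 genes, or 0.647% of those tested, were higher and 0.122% lower). The number lower was 0 of the 37 by edgeR, 0 by DESeq2 and 0 with unadjusted p-values under 0.05. ACSL4 stood at 13.6, 15.1 and 13.5 CPM in the EV, 24.5, 21.5 and 19.5 in the WT and 21.1, 18.3 and 20.4 in the 3A vehicle libraries. All WT and 3A libraries were above all EV libraries. The log2 difference of WT from EV was 0.64 (adjusted p = 0.012) and that of 3A from EV 0.51 (adjusted p = 0.0144). The WT call was lost in a fit of the compared groups alone (0.63, edgeR adjusted p = 0.107) and without EV vehicle replicates 1 or 3 (0.61 or 0.60) or WT vehicle replicates 1 or 2 (0.54 or 0.64). The 3A call was lost without EV vehicle replicates 1 or 3 (0.48 or 0.48) or 3A vehicle replicates 1 or 3 (0.46 or 0.49).

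In 3A vehicle libraries 5 of the 37 genes were higher than in EV (3.97% of all genes were) and 1 was lower (3.27%): FADS1, FADS2, ELOVL6, ACSL4 and AMACR were higher, and FADS3 was lower. Against WT, 6 were higher (2.64% of all genes): ACACA, ACLY, SCD, FADS2, ELOVL6 and AMACR. None was lower by edgeR (2.99% of all genes), beside 1 called by DESeq2 and 3 with unadjusted p-values under 0.05. The 2 comparisons share the 3A libraries. FADS1 and FADS2 were thus both higher in 3A than in EV: FADS2 by 0.60 against EV and 0.63 against WT (adjusted p = 0.00301 and 0.00315), FADS1 by 0.50 against EV (adjusted p = 0.0101) and 0.35 against WT with no call. The FADS1 call was lost without EV vehicle replicate 1 (0.41). FADS3, at 36.4, 44.9 and 45.9 CPM in the EV, 35.9, 36.2 and 40.1 in the WT and 27.5, 29 and 31.7 in the 3A libraries, differed the other way, at -0.53 against EV (adjusted p = 0.00327), with every 3A library below every EV library. ELOVL6 was 0.49 and 0.66 higher in 3A than in EV and WT (adjusted p = 0.0221 and 0.00355), and the first call was lost without EV vehicle replicates 1 or 3 (0.48 or 0.47) or 3A vehicle replicates 1 or 3 (0.46 or 0.49). For AMACR the differences were 0.90 and 0.77 (adjusted p = 0.000632 and 0.00454). HOXB13 RNA was also higher in 3A than in EV (0.51, adjusted p = 0.00482) and WT (0.50, adjusted p = 0.00807), and its part in these differences was not tested.

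Synthesis genes were higher in 3A than in WT without androgen for ACLY (0.46, adjusted p = 0.0176) and ACACA (0.51, adjusted p = 0.0311). FASN showed a larger difference, 0.85, with every 3A library above every WT library, and no call (adjusted p = 0.0532). It was called in a fit of these 2 groups alone (0.86, edgeR adjusted p = 0.0346), with no filter on low counts (0.86, edgeR adjusted p = 1.55e-12) and without 3A vehicle replicate 1 (1.08, edgeR adjusted p = 0.0173). With no filter the estimate hardly moved, so the lower p-value came from the fitted spread and not from a larger difference. With the replicate number as a block FASN was called too (0.83, edgeR adjusted p = 0.0018). The FASN libraries themselves were widely spread. SCD was higher by 0.46 (adjusted p = 0.0421). The fit of these 2 groups alone ended the calls for ACLY (0.47, edgeR adjusted p = 0.06), ACACA (0.52, edgeR adjusted p = 0.0749) and SCD (0.46, edgeR adjusted p = 0.101). Leaving out single libraries also ended them: ACLY without WT vehicle replicate 3 (0.36) or 3A vehicle replicates 2 or 3 (0.47 or 0.40), ACACA without WT vehicle replicate 3 (0.39) or 3A vehicle replicates 2 or 3 (0.54 or 0.40) and SCD without WT vehicle replicates 2 or 3 (0.38 or 0.39) or 3A vehicle replicates 1, 2 or 3 (0.45, 0.53 or 0.40).

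With R1881, 6 of the 37 genes were lower in WT than in EV (4.04% of all genes were) and 1 was higher (4.66%). The lower genes were SLC25A1, ACSL3, PLIN3, PNPLA2, ACADVL and ECI2. Of the 37 genes 11 had every WT library below every EV library and 7 every one above. Over all genes 31.5% had no overlap in either direction. All 6 lower genes were among the 11, which the call itself makes likely. ACSL3 was lower by 0.54 on the log2 scale, at 903 ± 174 against 1312 ± 140.1 CPM (SD, n = 3, adjusted p = 0.0133). PNPLA2 had -0.49 (adjusted p = 0.00196), ACADVL -0.54 (adjusted p = 0.00647), ECI2 -0.49 (adjusted p = 0.0148), PLIN3 -0.44 (adjusted p = 0.0118) and SLC25A1 -0.36 (adjusted p = 0.0498). ACSL4 was the higher gene, with R1881 libraries at 9.84, 12.4 and 9.78 CPM in the EV, 22, 22.9 and 18.8 in the WT and 15, 17.5 and 17.1 in the 3A groups, a log2 difference of 0.99 (adjusted p = 6.98e-05). FASN had -0.74 with no call (adjusted p = 0.0726), though its WT libraries were below its EV libraries. FASN was called in a fit of these 2 groups alone (-0.74, edgeR adjusted p = 0.00445) and with no filter on low counts (-0.77, edgeR adjusted p = 7.72e-10). Here too the estimate hardly moved with no filter, and the lower p-value came from the fitted spread. ELOVL5 (-0.36) and GPAM (0.45) also had no call (adjusted p = 0.0554 and 0.0535), and both were called in the same 2 fits, by DESeq2, with protein-coding genes only and with at least 1 CPM in 3 libraries. With the replicate number as a block FASN (-0.74), ELOVL5 (-0.37) and GPAM (0.45) were called too (edgeR adjusted p = 0.0032, 0.00115 and 0.00151). The calls of PNPLA2, ACADVL and ACSL4 were kept without any 1 library. That of ACSL3 was lost without EV R1881 replicate 2 (-0.46), that of ECI2 without EV R1881 replicate 3 (-0.45) or WT R1881 replicate 2 (-0.46), that of PLIN3 without EV R1881 replicate 2 (-0.39) or WT R1881 replicate 2 (-0.40) and that of SLC25A1 without EV R1881 replicates 1, 2 or 3 (-0.39, -0.38 or -0.34) or WT R1881 replicates 1 or 2 (-0.35 or -0.33). SLC25A1 was also lost with at least 1 CPM required in 3 libraries (-0.36, edgeR adjusted p = 0.0507).

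Between 3A and EV with R1881, 4 genes were higher (4.39% of all genes) and 4 were lower (4.06%). FADS1 (0.42), ELOVL6 (0.49), ACSL4 (0.63) and AMACR (0.61) were higher, with adjusted p = 0.0304, 0.0214, 0.00332 and 0.0156. These 4 genes were also called as higher in the same comparison of vehicle libraries. FADS3 libraries with R1881 were at 31.1, 39.8 and 35.5 CPM in the EV, 28.7, 33.2 and 30.9 in the WT and 27.3, 27.4 and 28.1 in the 3A groups. FADS3 (-0.36), AGPAT2 (-0.44), PNPLA2 (-0.36) and ACADVL (-0.44) were lower, with adjusted p = 0.0452, 0.0447, 0.0156 and 0.0236. With the replicate number as a block FADS2 (0.32, edgeR adjusted p = 0.0355) and ELOVL2 (1.37, edgeR adjusted p = 0.0359) were called too. ELOVL2, at an adjusted p of 0.0561 in the main fit, was also called by DESeq2 (1.37, adjusted p = 0.0287). So it was with no filter, with at least 1 CPM in 3 libraries, with protein-coding genes only and with the compared groups alone. Of the 8 calls, that of ACSL4 was kept without any 1 library. FADS1 lost its call without EV R1881 replicates 1 or 3 (0.29 or 0.47) or 3A R1881 replicates 2 or 3 (0.35 or 0.44), ELOVL6 without EV R1881 replicates 1 or 3 (0.38 or 0.52) or 3A R1881 replicates 2 or 3 (0.43 or 0.39) and AMACR without EV R1881 replicate 3 (0.53) or 3A R1881 replicate 2 (0.51). Of the lower genes, FADS3 lost it without EV R1881 replicates 2 or 3 (-0.28 or -0.37) or 3A R1881 replicates 1, 2 or 3 (-0.36, -0.36 or -0.39), AGPAT2 without EV R1881 replicates 1, 2 or 3 (-0.44, -0.50 or -0.42) or 3A R1881 replicates 1, 2 or 3 (-0.43, -0.42 or -0.49), PNPLA2 without EV R1881 replicate 3 (-0.34) or 3A R1881 replicate 3 (-0.37) and ACADVL without EV R1881 replicates 2 or 3 (-0.38 or -0.44) or 3A R1881 replicates 1 or 3 (-0.42 or -0.42). FADS3 was also lost with no filter (-0.39, edgeR adjusted p = 0.0518) and with at least 1 CPM in 3 libraries (-0.36, edgeR adjusted p = 0.0514).

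Between 3A and WT with R1881, 5 genes were higher (1.41% of all genes) and 1 was lower (1.77%). ACSL3 was higher by 0.77 (SE 0.13, adjusted p = 0.00152), with the 3A libraries all above the WT libraries. AMACR was higher by 0.94 (adjusted p = 0.00111), FADS2 by 0.57 (adjusted p = 0.0102) and PLIN3 by 0.43 (adjusted p = 0.0244). ELOVL2 had a fitted difference of 2.09 (adjusted p = 0.0107) from the low counts given above. DGAT2 was lower by 0.43 on the log2 scale (adjusted p = 0.0196). ECI2 had 0.40 and no call (adjusted p = 0.0776), with each 3A library above each WT library. It was called by DESeq2 (0.40, adjusted p = 0.0332) and with no filter (0.40, edgeR adjusted p = 0.0189). FASN had 0.60 with overlapping libraries and no call (adjusted p = 0.242), and was called with no filter (0.59, edgeR adjusted p = 8.72e-06). With the replicate number as a block ECI2 (0.39), FASN (0.55) and ELOVL5 (0.26) were called too (edgeR adjusted p = 0.0152, 0.043 and 0.0234). ACSL3 and AMACR kept their calls without any 1 library. FADS2 lost its call without WT R1881 replicate 1 (0.52) or 3A R1881 replicate 2 (0.47), PLIN3 without WT R1881 replicates 2 or 3 (0.38 or 0.43) or 3A R1881 replicates 1 or 2 (0.40 or 0.37), ELOVL2 without WT R1881 replicates 2 or 3 (1.85 or 1.86) or 3A R1881 replicate 2 (1.92) and DGAT2 without WT R1881 replicate 2 (-0.38) or 3A R1881 replicates 1 or 2 (-0.42 or -0.42). HOXB13 RNA was higher here too, by 0.55 on the log2 scale (adjusted p = 0.00595).

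**Figure D4:**
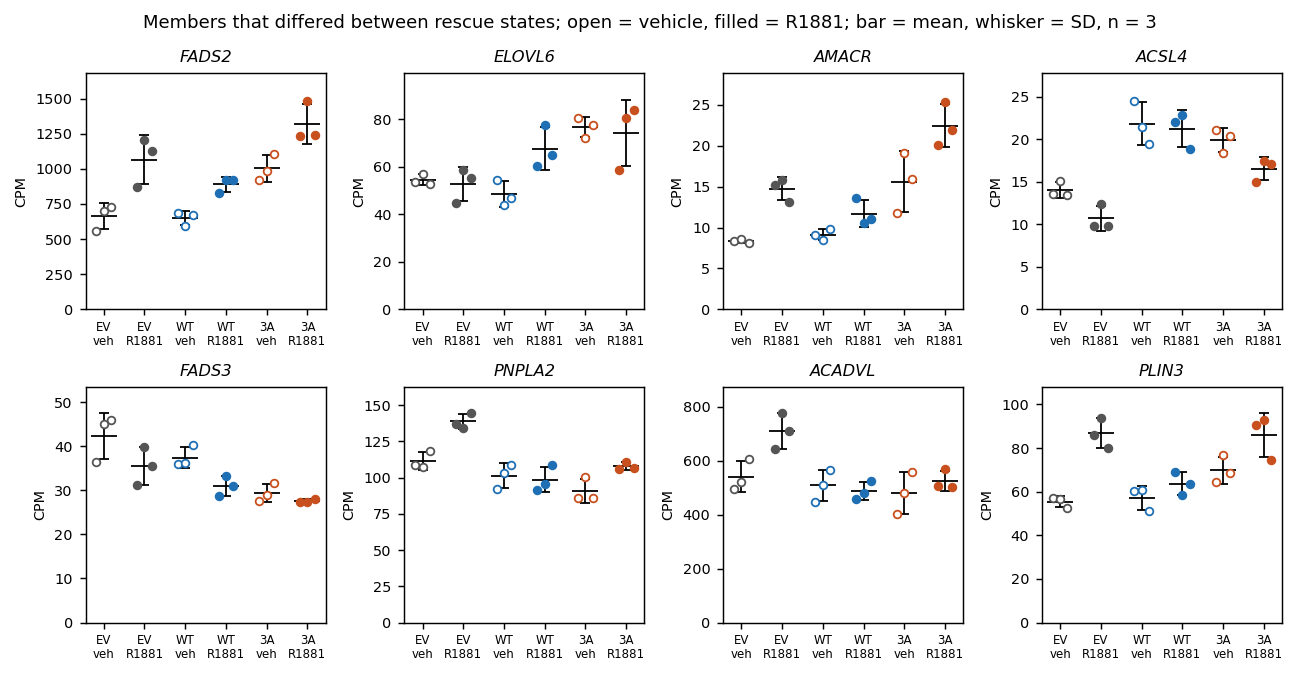
CPM of 8 genes that differed between rescue states (vertical axes, from 0) in each of the 18 libraries. Open points are vehicle and filled points R1881, bars are means and whiskers SD, n = 3. FADS2, ELOVL6 and AMACR are higher in 3A vehicle libraries than in both other states, ACSL4 is lowest in EV in both treatments, and PNPLA2 and ACADVL are highest in EV with R1881.

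Whether the androgen response itself differed between rescue states was tested with the 3 interactions. None of the 37 genes passed by edgeR in any of them, where 0.198% of all genes did for WT against EV, 0.0117% for 3A against EV and 0.0583% for 3A against WT. At an unadjusted p under 0.05 there were 7, 4 and 7 of the 37. DESeq2 called 0, 0 and 1. The smallest edgeR adjusted p was 0.242 for PLIN3 in WT against EV (difference in response -0.49, 95% interval -0.81 to -0.18), and 0.155 for ACSL3 in 3A against WT (0.75, 0.37 to 1.14), the gene that DESeq2 called. With no filter on low counts edgeR called it too (0.74, edgeR adjusted p = 0.00125). For ACSL3 the EV response of 3.19 differed from the WT response of 2.67 by -0.52 (95% interval -0.91 to -0.14, adjusted p = 0.341). For FASN the 3 responses gave differences of -0.23, -0.49 and -0.26, with 95% intervals of -0.98 to 0.51, -1.24 to 0.25 and -1.0 to 0.49. Whether the ACSL3 response differed between 3A and WT thus depended on the fit.

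Other genes of the pathway were listed as 87 further genes, of which 69 could be tested. With R1881, 18, 16 and 18 of them rose in EV, WT and 3A (26.1%, 23.2% and 26.1%, beside 13.2%, 11% and 12.4% of all genes) and 6, 7 and 9 fell (8.7%, 10.1% and 13%, beside 12%, 9.14% and 12.1%), with medians of 0.03, -0.02 and 0.05. Of 9 tested genes of synthesis and elongation 1 (11.1%) rose and 1 (11.1%) fell in each state, close to the shares over all genes. Of 11 tested genes of peroxisomal oxidation 5, 5 and 6 rose (45.5%, 45.5% and 54.5%). Of 15 of mitochondrial oxidation 2 (13.3%) rose in each state, close to the share over all genes, and 1, 3 and 1 fell. Of 13 regulators of sterol and fatty acid metabolism 5, 4 and 4 rose and 2, 3 and 4 fell. SCAP, the escort that carries the SREBP transcription factors to the Golgi, had 155, 149 and 142 CPM in the EV, 146, 146 and 141 in the WT and 149.7, 163 and 152 in the 3A vehicle libraries. Given R1881, SCAP had 484, 585 and 547 CPM in the EV, 383, 319.8 and 339.6 in the WT and 567, 518 and 485 in the 3A libraries. It rose by 1.86 (EV), 1.27 (WT) and 1.76 (3A) (adjusted p = 2.19e-12, 1.02e-09 and 4.86e-12), and was lower in WT than in EV with R1881 by 0.63 on the log2 scale (adjusted p = 0.000196). INSIG1, which retains SCAP and is itself a target of SREBP, rose by 1.32 (EV), 1.19 (WT) and 1.35 (3A) (adjusted p = 2.41e-08, 1.61e-07 and 1.75e-08). Its paralogue INSIG2 fell in all 3 states, with log2 fold changes of -1.21 (EV), -0.94 (WT) and -0.64 (3A) (adjusted p = 2.74e-07, 9.39e-06 and 0.00056), as did MID1IP1, an activator of the acetyl-CoA carboxylases, at -0.22 (EV), -0.29 (WT) and -0.38 (3A). SREBF1, the SREBP gene tied to fatty acid synthesis, was called in no state and lay between -0.02 and 0.00 on the log2 scale.

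DBI, the acyl-CoA binding protein, rose by 2.05 (EV), 1.25 (WT) and 1.65 (3A) (adjusted p = 4.09e-09, 5.41e-06 and 9.08e-08), from 103, 83.7 and 121 CPM in the EV, 86.6, 101 and 122 in the WT and 93.2, 107 and 98.7 in the 3A vehicle libraries. Given R1881, DBI reached 408, 439.9 and 425 CPM in the EV, 262, 204 and 272 in the WT and 406, 268 and 261 in the 3A libraries. CROT, the carnitine octanoyltransferase of peroxisomes, rose by 1.19 (EV), 1.0 (WT) and 1.30 (3A) (adjusted p = 9.85e-06, 8.97e-05 and 2.4e-06). The mitochondrial dehydrogenase ACADL had 4, 0 and 1 counts summed over the EV, WT and 3A vehicle libraries and 41, 23 and 74 with R1881. The ratio was 12.7 in EV (exact 95% counting interval 4.59 to 48.7) and 78.4 in 3A (13.6 to 3138). In WT it was at least 7.68-fold higher against a floor of 3 counts over the group, and the lower end of the exact 95% counting interval was 5.76. ACSS1, the mitochondrial counterpart of ACSS2, had 10, 33 and 37 counts in the EV, 27, 40 and 33 in the WT and 22, 23 and 27 in the 3A vehicle libraries. Under R1881 ACSS1 had 7, 4 and 1, 9, 18 and 1 and 4, 3 and 3 counts in those states. It fell by 2.37, 1.84 and 2.73 on the log2 scale (adjusted p = 0.0102, 0.0284 and 0.00444), so ACSS2 and ACSS1 moved in opposite directions in all 3 states.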

How the data were processed

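The deposited files hold read counts, in whole reads for each Ensembl gene, and FPKM values, which the authors computed for these genes. Per the labels' protocols, total RNA was converted with a NEBNext Ultra II kit and sequenced from both ends. The submitters' processing notes name the aligner HISAT2 (2.0.5), the counter featureCounts (1.5.0-p3) and hg38. Which annotation release and strand setting were used, and what was done with reads of several genes, is not given in the sources used here, so values of overlapping genes are uncertain. AMACR and ECI2 had the largest overlapping share of exon bases, but the genes over ECI2 held 83 counts beside its 56156. Among others, ACSL5 (297 counts) overlaps genes with 15068 counts, and DGAT1 (21676 counts) overlaps genes with 66202. FPKM matched count over length and effective library size (tolerance 0.1%) for 100% of 407062 non-zero values and served to compare levels between genes.

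From the deposited counts, filterByExpr (minimum count 10, minimum total 15) kept 17162 genes (29.2%). TMM scaling and a quasi-likelihood fit by group followed in edgeR 4.0.16 (R 4.3.3), over all 18 libraries with 12 residual degrees of freedom. Groups came from the sample titles. The 12 comparisons were R1881 against vehicle in 3 states, 3 pairs of states in each treatment, and 3 interactions. Benjamini-Hochberg adjustment ran over the 17162 genes. Intervals are at 95%, and floors use 3 counts. Counting intervals cover counting error only, since reads carry no molecular identifiers. The procedure was tested on simulated data.

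The members and gene lists were chosen with earlier results of these data known. Library values and full statistics are given for members called at a log2 fold change of at least 1 with R1881, members called between rescue states, and the 2 most abundant of each role. The other pathway genes named were called at that size in the same direction in all 3 states. LPIN1, HADHB and other members outside this rule, and INSIG2, MID1IP1 and SREBF1, were named after their values were seen. Alternatives were DESeq2 1.42.0 (without independent filtering), its size factors in edgeR, other filters, protein-coding genes only, the compared groups alone, a replicate block, and each library left out.

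Replicate numbers stand in the titles, with no word on what they mark. Deviations of same-numbered libraries correlated at -0.14 to 0.28. All 3 correlations were over 0.1 in 3 of 15 pairs of groups, among them EV vehicle with EV R1881 and EV R1881 with 3A R1881. The blocked value is given beside the results of those 2 comparisons that it changed, and elsewhere for FASN and some other genes.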

Additional observations from a re-analysis of the deposited data

How the results depend on the processing

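Of 96 calls of a member in a comparison, 58 were kept without any 1 library and 38 were lost without at least 1, and no call changed sign under any alternative run. With DESeq2's size factors, the replicate block and DESeq2 no call was lost, with protein-coding genes only 1 was, with at least 1 CPM in 3 libraries 2, with no filter 5 and with the compared groups alone 7. In the same order, 1, 35, 14, 7, 5, 17 and 10 calls were gained. Only the proportionally larger changes in the counts of members called are listed next, and their cause was not tested. Smaller changes are left out. For 3A against WT in vehicle, for example, no filter added FASN, FADS1 and LPIN1 to the higher genes. For R1881 in EV the replicate block added HADHA, GPAM and FADS3 to the lower genes. Genes lower with R1881 in WT (2) became 4 with the replicate block and 1 with the compared groups alone. For WT against EV in vehicle, 1 gene, FASN, was lower with no filter (0 before). Its value was -0.51 (edgeR adjusted p = 0.000691), beside -0.51 (edgeR adjusted p = 0.71) in the main fit. In the same comparison 0 were higher with the compared groups alone (1 before). For 3A against EV in vehicle, the lower genes (1) became 2 with no filter and with 1 CPM, 3 with protein-coding genes only and with DESeq2, and 5 with the replicate block, and the higher genes (5) became 8 with the replicate block. For 3A against WT in vehicle, 2 were lower with the replicate block and 1 with DESeq2 (0 before). For WT against EV with R1881, the higher gene (1) became 2 with 1 CPM and with protein-coding genes only, 3 with no filter and with DESeq2, and 4 with the replicate block and with the compared groups alone. For 3A against WT with R1881, the higher genes (5) became 8 with the replicate block. In the interactions, the replicate block gave 1 lower gene for WT against EV (0 before), and 1 higher gene for 3A against WT came with no filter, the replicate block and DESeq2 (0 before). The gene was ACSL3 each time (with the block -0.54 and 0.76, edgeR adjusted p = 0.04 and 0.0106).

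With each library left out in turn, the higher and lower members numbered 17 to 19 and 2 to 4 for R1881 in EV, 13 to 15 and 1 to 2 in WT, and 13 to 16 and 3 to 5 in 3A. In vehicle they numbered 0 to 1 and 0 to 0 for WT against EV, 2 to 5 and 1 to 3 for 3A against EV, and 3 to 7 and 0 to 0 for 3A against WT. With R1881 they numbered 1 to 2 and 3 to 6 for WT against EV, 1 to 4 and 0 to 3 for 3A against EV, and 2 to 5 and 0 to 1 for 3A against WT. The interactions kept 0 and 0 by edgeR in each of these fits. Same-numbered libraries correlated best with each other in 32 of 45 pairs, a hint from the data and not from the design. Genes with few reads (ELOVL2, ELOVL4, ACSL5, PLIN2 and LIPE among the members) are limited by depth.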
